A study of Mus musculus with 47 samples.

Results

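The genes described here are 42 genes of cell division, taken by symbol from the 38087 rows of a table of read counts over exons. All 42 were found and all 42 passed the filter on low counts in every comparison. By the step of the cycle they are best known for, 20 were grouped as S phase genes, which copy the DNA, 20 as G2/M genes, which prepare and carry out mitosis, and 2 as brakes on cyclin-dependent kinases. The study asked how the transcripts of the small intestine depend on the gut flora and on the time of day. It used male C57BL/6j mice aged 15 to 16 weeks and fed ad libitum, with no genetic change or drug named in the labels. Germ-free (GF) mice, raised without microorganisms, were compared with conventionally raised (convR) mice. Ileum, the part next to the colon, and duodenum, the part next to the stomach, were taken at 6 points of the light cycle, given as ZT (h since the lights came on): 2, 6, 10, 14, 18 and 22. There were 11 GF and 12 convR libraries of ileum and 12 GF and 12 convR libraries of duodenum, with 2 libraries per group and time except GF ileum at ZT2, which had 1. The labels do not say that libraries of a group came from separate mice, so p-values measure the spread between these samples.

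A dividing cell first licenses its replication origins with Cdc6, Cdt1 and the Mcm helicase, then fires them in S phase and copies its DNA, and then enters mitosis under cyclin B and Cdk1. Exit from mitosis needs the anaphase-promoting complex, a ubiquitin ligase that Cdc20 activates. In the intestine division is confined to the crypts, where stem cells and their transit-amplifying daughters renew the lining every few days, and the villus cells above them no longer divide. Transcripts of this kind therefore come mostly from crypt cells and, to some extent, from dividing immune cells in the wall of the gut. All values come from whole pieces of tissue, in which fewer dividing cells and less RNA per dividing cell cannot be told apart.

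S phase and G2/M genes are known to be controlled by different promoter elements, and the deposited genes could be set beside their promoters. RefSeq promoters (GRCm38.p6, 250 bases before to 50 bases after the start) were found for 33 of the 42 genes, 35 promoters in all. The cell cycle homology region (CHR, searched as TTTGAA on both strands), through which G2/M genes are repressed outside their phase, was in 75% of 16 G2/M promoters, 11.8% of 17 S phase promoters and 17.9% of all 32851 promoters. The E2F site of S phase genes (searched as TTTCCCGC, TTTGGCGC, TTTCGCGC and TTTGCCGC on both strands) was in 6.25% of the G2/M promoters, 47.1% of the S phase promoters and 2.26% of all promoters. CCAAT boxes, searched as CCAAT on both strands, were in 93.8% of the G2/M promoters, 70.6% of the S phase promoters and 37.4% of all promoters. The E-box CACGTG, which clock factors can bind, was in 2.86% of the 35 promoters, against 7.15% of all promoters. The brake gene Wee1 was among the genes without a promoter, so this share does not cover it. Letters that match are a description of these windows and not a sign of binding. Of the genes whose RefSeq start lies in a GENCODE transcript and whose promoter holds the element, the 2 of each phase with the smallest p in duodenum are shown. Capitals mark CHR, CCAAT and E2F letters on either strand, and the sequences run 5′ to 3′ on the strand of the gene. Cdc20 is at chr4:118437294-118437593 on the minus strand, Top2a at chr11:99024140-99024439 on the minus strand, Mcm3 at chr1:20820263-20820562 on the minus strand and Cdc6 at chr11:98907901-98908200 on the plus strand. In GENCODE the gene Cdc6 starts at 98907801, so its whole window, E2F letters included, lies inside the annotated gene. The same holds for some other windows counted in the shares, that of E2f1 among them.
Cdc20 promoter: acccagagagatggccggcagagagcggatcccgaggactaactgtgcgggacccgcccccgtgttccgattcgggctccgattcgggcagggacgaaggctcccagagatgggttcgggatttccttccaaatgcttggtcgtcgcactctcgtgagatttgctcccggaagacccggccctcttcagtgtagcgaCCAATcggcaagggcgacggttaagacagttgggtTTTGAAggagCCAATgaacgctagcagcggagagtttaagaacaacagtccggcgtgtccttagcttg
Top2a promoter: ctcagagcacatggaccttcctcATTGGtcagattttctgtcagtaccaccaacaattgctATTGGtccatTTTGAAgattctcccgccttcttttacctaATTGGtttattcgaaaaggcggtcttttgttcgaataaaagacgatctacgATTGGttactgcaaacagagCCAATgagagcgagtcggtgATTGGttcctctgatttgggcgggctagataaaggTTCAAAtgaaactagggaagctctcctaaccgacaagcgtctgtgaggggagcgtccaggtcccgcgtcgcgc
Mcm3 promoter: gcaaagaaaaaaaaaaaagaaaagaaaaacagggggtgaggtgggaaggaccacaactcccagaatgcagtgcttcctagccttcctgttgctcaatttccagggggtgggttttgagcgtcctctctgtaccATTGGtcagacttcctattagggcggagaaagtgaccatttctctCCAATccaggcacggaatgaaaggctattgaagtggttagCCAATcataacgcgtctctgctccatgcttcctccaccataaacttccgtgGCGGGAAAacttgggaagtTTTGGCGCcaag
Cdc6 promoter: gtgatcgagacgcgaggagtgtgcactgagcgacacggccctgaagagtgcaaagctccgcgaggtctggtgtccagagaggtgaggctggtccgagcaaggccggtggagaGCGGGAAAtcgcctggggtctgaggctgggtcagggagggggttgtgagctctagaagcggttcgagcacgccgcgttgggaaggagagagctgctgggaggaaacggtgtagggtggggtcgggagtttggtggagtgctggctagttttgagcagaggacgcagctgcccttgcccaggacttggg
The first pair holds CHR and CCAAT letters and no E2F letters, and the second pair holds E2F letters and no CHR letters.

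Each library held between 22.5 M and 41.9 M counts, and the median library 31.9 M. The ileal gene Fabp6, a bile acid binding protein, averaged 2815 and 2700 CPM (counts per M counts of the library, after adjustment of library totals by TMM, a trimmed mean of ratios between libraries) in GF and convR ileum, and 1.08 and 0.907 CPM in GF and convR duodenum. Of 24 duodenum libraries 10 stood apart, by pancreas or stomach transcripts or by a TMM factor over 1.2, and of 23 ileum libraries 2 did, by Fabp6 under 1000 CPM. Summed pancreas acinar markers ran from 11.6 to 7527 CPM over GF duodenum libraries and from 14.6 to 2884 CPM over convR duodenum libraries. Results that rest on these libraries are given with and without them. Of the 42 genes, 9 share exon sequence with another gene with more than 10 counts on average. On the opposite strand these partners include Elovl1 for Cdc20, Ufd1 for Cdc45 and Ints8 for Ccne2. Since the strand setting of the counting is not given, the counts of these genes are uncertain to that extent.

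Per kilobase of exon, the proliferation marker Mki67 was the highest of the G2/M genes, at 35.7 and 39.6 CPM per kb in GF and convR ileum and 26.7 and 34.4 CPM per kb in GF and convR duodenum. The brake Cdkn1a, which codes for the kinase inhibitor p21, was higher still in GF and convR ileum, at 48.6 and 43.1 CPM per kb. It also lay above Mki67 in GF duodenum, but not in convR duodenum. The sliding clamp Pcna led the S phase genes at 27.5 and 28.6 CPM per kb in GF and convR ileum and 31.3 and 29.7 CPM per kb in GF and convR duodenum. The G1/S transcription factor E2f1 was the lowest of all 42 in each of the 4 groups, with 1.37 and 1.44 CPM per kb in GF and convR ileum and 1.095 and 1.33 CPM per kb in GF and convR duodenum. Its counts per library still ran from 64 to 216.

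Transcripts of mitosis were lower in the duodenum of GF mice. All 20 G2/M genes fell, with a median log2 fold change (GF over convR) of -0.47, and 15 of 20 S phase genes fell and 1 rose, with a median of -0.29. Of all 42 genes, 35 fell, 2 rose and 5 missed the threshold. Their median was -0.38, against a median of -0.01 over 17986 genes tested. Of all genes tested, 23.8% were lower and 22.5% higher in GF duodenum at an adjusted p under 0.05 (edgeR quasi-likelihood test with ZT as a factor, Benjamini-Hochberg over all genes, two-sided). Summed over the 20 G2/M genes, levels averaged 847 ± 90.1 CPM in GF and 1157 ± 158 CPM in convR duodenum (SD, n = 12 each). Summed over the 20 S phase genes they averaged 492 ± 43.5 CPM in GF and 576 ± 53.1 CPM in convR duodenum. The ratio of the G2/M sum to the S phase sum averaged 1.72 ± 0.132 in GF and 2.01 ± 0.246 in convR duodenum, and the libraries of both groups overlapped in it. Genes count in these sums by their level, so Mki67 and Top2a weigh most in the G2/M sum and Pcna and Mcm6 in the S phase sum.

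**Figure D1:**
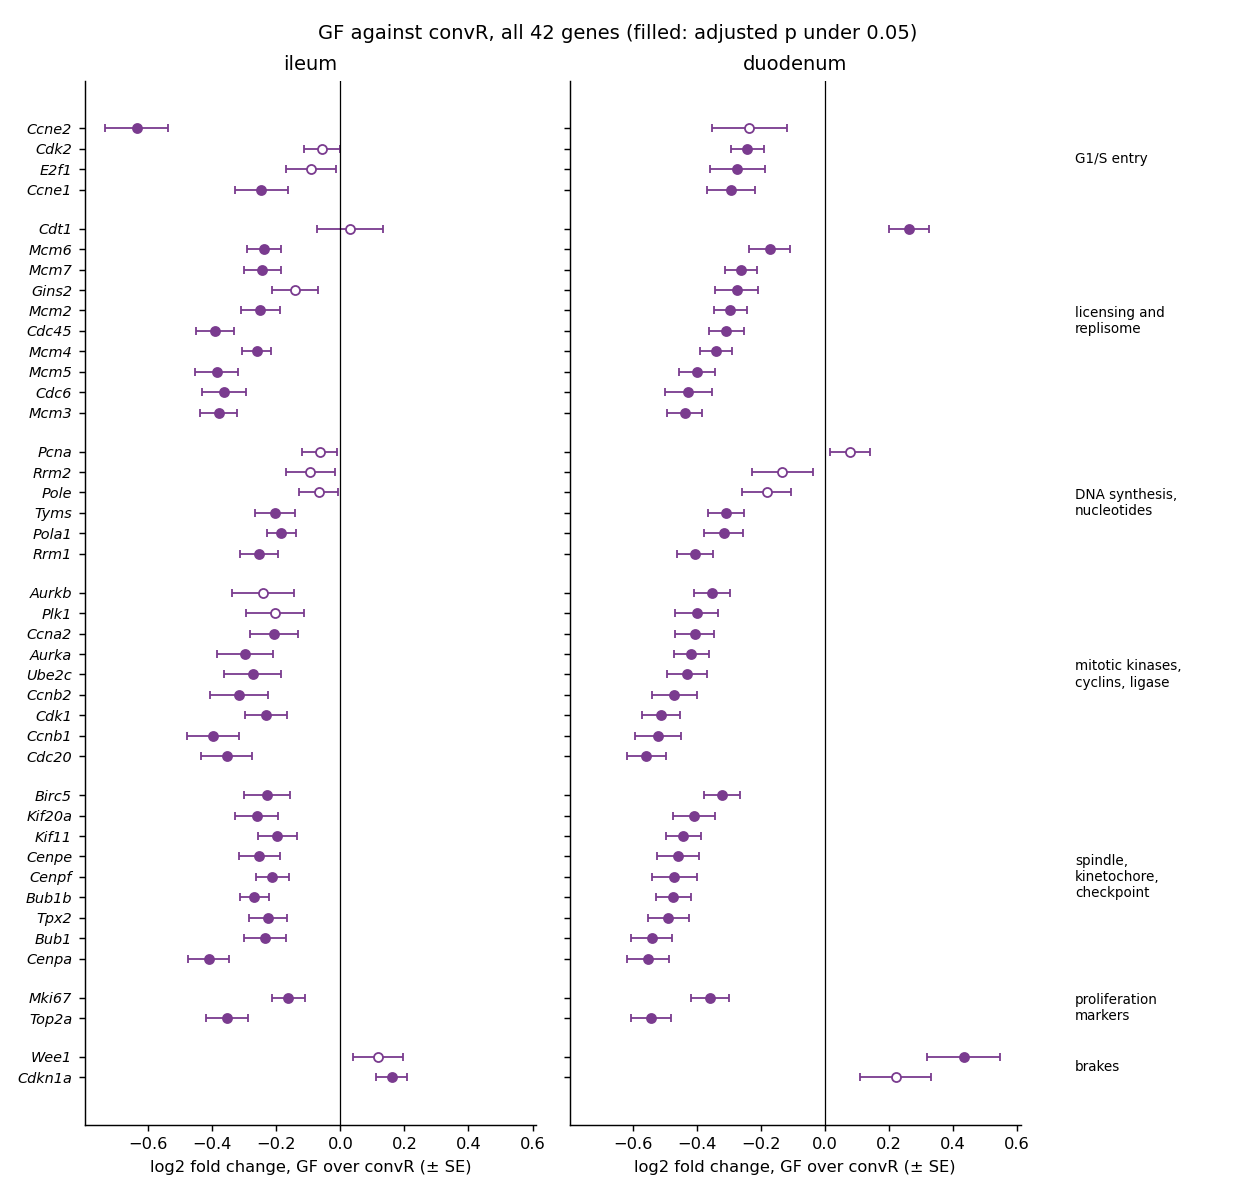
Log2 fold change of GF over convR (x axis, with its SE) for each of the 42 genes, grouped by role, in ileum (left) and duodenum (right). Filled points passed an adjusted p of 0.05: 31 lower and 1 higher in ileum, 35 lower and 2 higher in duodenum.

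The largest falls of the mitotic kinases, cyclins and ubiquitin ligase genes, all 9 of which fell, were of Cdc20 and the cyclin B1 gene Ccnb1. Cdc20 (ENSMUSG00000006398, mm10 chr4:118432901-118437352) ran from 13.2 to 20.6 CPM with a median of 17.7 CPM in GF duodenum and from 20.9 to 30.2 CPM with a median of 26.0 CPM in convR duodenum. Every GF duodenum library lay below every convR duodenum library. On the log2 scale it fell by 0.56 ± 0.06 (SE, edgeR adjusted p = 2.34e-07). Cdk1, the kinase that drives entry into mitosis, ran from 14.4 to 24.5 CPM with a median of 20.7 CPM in GF and from 23.3 to 35.6 CPM with a median of 29.7 CPM in convR duodenum, so that the groups overlapped only at their edges. It fell by 0.51 ± 0.06 on the log2 scale (SE, edgeR adjusted p = 8.01e-07). Ccnb1, its cyclin, fell by 0.52, Ccnb2 by 0.47 and Ccna2, the cyclin of S phase and early mitosis, by 0.41. The polo-like kinase gene Plk1 fell by 0.40, the Aurora kinase genes Aurka and Aurkb by 0.42 and 0.35, and Ube2c, which supplies ubiquitin to the anaphase-promoting complex, by 0.43.

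The 9 genes of the spindle, the kinetochore and its checkpoint all fell as well. Bub1 (ENSMUSG00000027379, mm10 chr2:127801122-127831865), a checkpoint kinase at kinetochores, ran from 9.49 to 14.2 CPM with a median of 13.2 CPM in GF duodenum and from 14.6 to 26.9 CPM with a median of 16.9 CPM in convR duodenum. Bub1b, which codes for the checkpoint protein BubR1, ran from 18.7 to 28.2 CPM with a median of 25.1 CPM in GF and from 28.4 to 41.9 CPM with a median of 33.3 CPM in convR duodenum. For both genes the GF duodenum libraries all lay below the convR ones, which held for 3 of the 42 genes, Cdc20 included, and for 2.07% of all genes tested. Their log2 fold changes were -0.54 ± 0.06 and -0.47 ± 0.06 (SE, edgeR adjusted p = 8.01e-07 and 6.18e-07). Cenpa, the histone H3 variant that marks centromeres, fell by 0.55 to 12.98 ± 2.16 CPM in GF, against 19.1 ± 3.34 CPM in convR duodenum (SD, n = 12 each, edgeR adjusted p = 8e-07). The spindle motor gene Kif11 fell by 0.44, the spindle assembly factor gene Tpx2 by 0.49, the kinetochore genes Cenpe and Cenpf by 0.46 and 0.47, and the survivin gene Birc5 by 0.32, the smallest fall of the 20 G2/M genes.

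Both proliferation markers fell. Top2a (ENSMUSG00000020914, mm10 chr11:98992943-99024189), the topoisomerase that untangles sister chromatids, ran from 129 to 199 CPM with a median of 172 CPM in GF duodenum and from 193 to 305 CPM with a median of 253 CPM in convR duodenum. Only the highest GF libraries reached the lowest convR library. It fell by 0.54 ± 0.06 on the log2 scale (SE, edgeR adjusted p = 5.53e-07). Mki67, the gene of the Ki-67 protein that coats mitotic chromosomes, averaged 269 ± 25.5 CPM in GF and 347 ± 45.7 CPM in convR duodenum (SD, n = 12 each), and fell by 0.36 ± 0.06 on the log2 scale (SE, edgeR adjusted p = 4.55e-05).

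**Figure D2:**
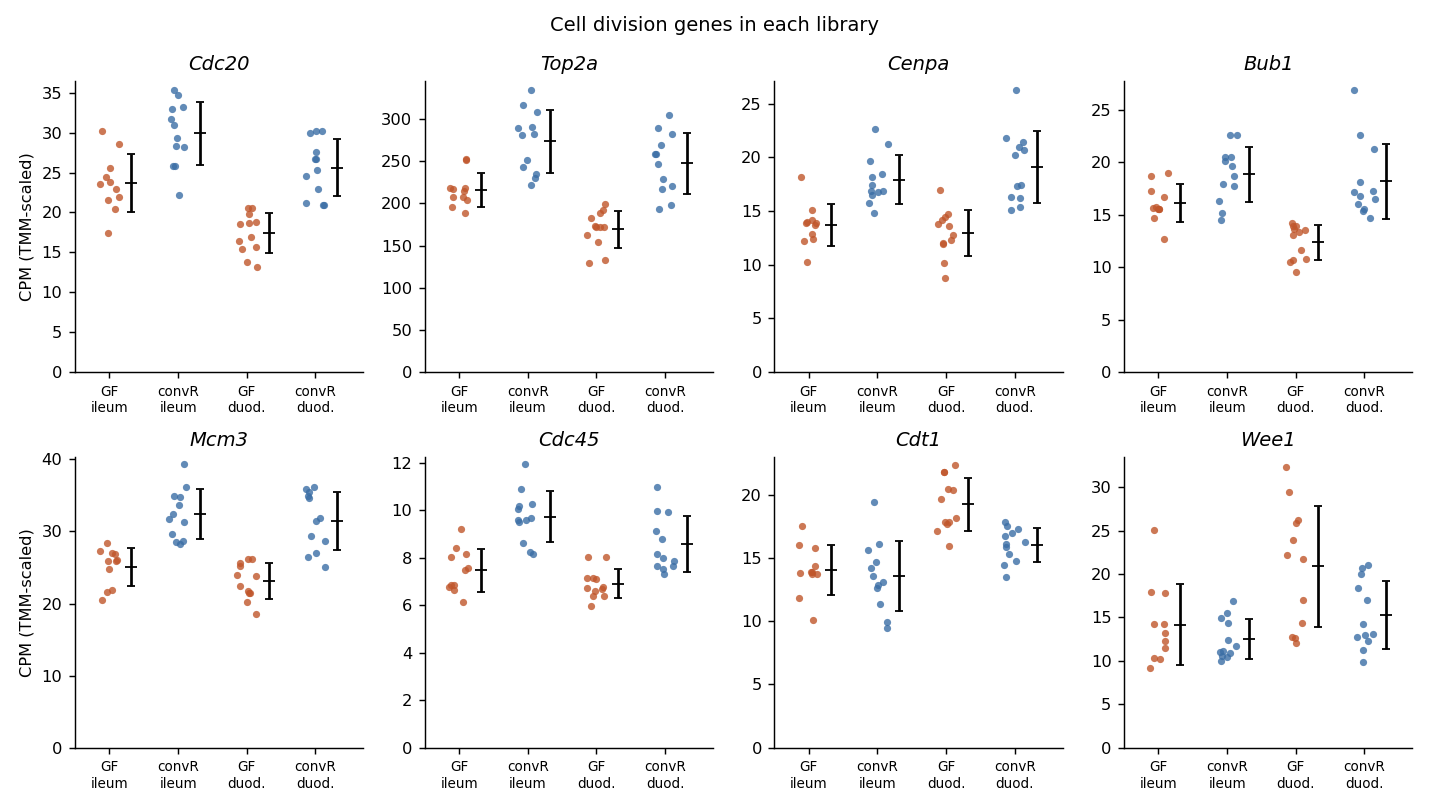
CPM (y axis, TMM-scaled, from 0) of 8 genes in each library, with GF in orange and convR in blue and black marks for the mean ± SD. In duodenum all GF libraries of Cdc20 and Bub1 lie below all convR libraries, and Cdt1 and Wee1 average higher in GF.

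Among the S phase genes of the duodenum the origin licensing and replisome genes moved together except for Cdt1: 9 of 10 fell and Cdt1 rose. Mcm3, a subunit of the replicative helicase, ran from 18.5 to 26.2 CPM with a median of 23.1 CPM in GF and from 25.1 to 36.1 CPM with a median of 31.7 CPM in convR duodenum, and the groups overlapped only at their edges. This was a fall of 0.44 ± 0.06 on the log2 scale (SE, edgeR adjusted p = 1.93e-06). Cdc6, which loads the helicase onto origins, fell by 0.43, and the other 5 Mcm genes fell by 0.17 (Mcm6) to 0.40 (Mcm5). Cdc45 and Gins2, which turn the loaded helicase on, fell by 0.31 and 0.28. Cdt1, the partner of Cdc6 in loading, ran from 16.0 to 22.4 CPM with a median of 18.9 CPM in GF and from 13.5 to 17.9 CPM with a median of 16.2 CPM in convR duodenum. It rose by 0.26 ± 0.06 on the log2 scale (SE, edgeR adjusted p = 0.00176). With library size alone as the scaling, which moved the median of all genes to -0.14, the log2 difference of Cdt1 was 0.13 and did not pass (edgeR adjusted p = 0.119).

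Of the 6 genes of DNA synthesis and nucleotide supply, Rrm1, the large subunit of ribonucleotide reductase, fell by 0.41, the polymerase alpha gene Pola1 by 0.32 and the thymidylate synthase gene Tyms by 0.31. Rrm2, Pole and Pcna did not pass. Pcna averaged 75.2 ± 6.38 CPM in GF and 71.2 ± 8.78 CPM in convR duodenum (SD, n = 12 each), a log2 difference of 0.08 ± 0.06 (SE). Rrm2 averaged 19.95 ± 4.62 CPM in GF and 21.8 ± 3.05 CPM in convR duodenum. Of the G1/S entry genes, Ccne1, a cyclin of S phase entry, fell by 0.29, E2f1 by 0.27 and the kinase gene Cdk2 by 0.24, and Ccne2 at -0.24 ± 0.12 (SE) did not pass.

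Both brakes averaged higher in GF duodenum, and 1 of the 2 passed. Wee1, the kinase that holds Cdk1 inactive before mitosis, ran from 12.1 to 32.4 CPM with a median of 21.9 CPM in GF and from 9.83 to 21.1 CPM with a median of 13.6 CPM in convR duodenum. The groups overlapped over much of their range. It rose by 0.43 ± 0.11 on the log2 scale (SE, edgeR adjusted p = 0.00381), and without the 10 duodenum libraries that stood apart its difference was 0.34 and did not pass (edgeR adjusted p = 0.0624). Cdkn1a averaged 87.9 ± 19.8 CPM in GF and 75.2 ± 14.5 CPM in convR duodenum (SD, n = 12 each) and did not pass (log2 difference 0.22 ± 0.11, SE).

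Further genes of the cycle, not among the 42, mostly moved in the same direction in duodenum. Their lists too were chosen with earlier results of these data known, so they are no independent check. Of 35 other G2/M genes 32 fell, 1 rose and 2 did not pass (median -0.39), and of 28 other S phase genes 18 fell and 10 did not pass (median -0.24). Cks1b, a small subunit of cyclin-dependent kinases, fell by 0.70, Kif23, a motor of the dividing cell's midzone, by 0.67, and the flap endonuclease gene Fen1 by 0.43. Of 64 measured replication-dependent histone genes 56 fell, 1 rose and 7 did not pass (median -0.46). As these genes are near-identical copies, how reads were split between them is not certain. Hist1h4m, at 1.75 ± 0.542 CPM in GF and 17.5 ± 3.25 CPM in convR duodenum (SD, n = 12 each), had the smallest p of that list. Its log2 fold changes of -3.33 in duodenum and -3.39 in ileum lay far from those of the other histone genes. The reason was not tested, and its value is not read as part of their falls. Of 23 measured G1 regulators and inhibitors 9 fell and 2 rose. Ccnd1, the cyclin that couples growth signals to the cycle, fell by 0.75 to 33.1 ± 6.38 CPM in GF, against 56.3 ± 12.2 CPM in convR duodenum. Rb1, the retinoblastoma protein gene that holds back E2F, rose by 0.49 to 177 ± 29.8 CPM in GF, against 126 ± 17.5 CPM in convR duodenum.

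Other cell types moved between the groups in duodenum too. Of 8 stem cell markers 3 fell, and their summed level ran from 380 to 507 CPM in GF and from 474 to 755 CPM in convR duodenum. Of 8 enterocyte markers 5 rose, with sums from 33310 to 49610 CPM in GF and from 11340 to 39940 CPM in convR duodenum. All 5 measured markers of B cells and germinal centres fell, with sums from 1.41 to 29.1 CPM in GF and from 10.6 to 75.9 CPM in convR duodenum. The rest of that list was not tested. A gene can pass the filter on low counts through convR alone, so this count depends on the filter. All 8 T cell markers fell, with sums from 25.6 to 43.4 CPM in GF and from 27.9 to 78.3 CPM in convR duodenum. All 4 plasma cell markers fell, with sums from 553 to 1832 CPM in GF and from 5192 to 11560 CPM in convR duodenum. All 6 macrophage markers fell, Csf1r by 0.58 among them, with sums from 96.4 to 153 CPM in GF and from 140 to 288 CPM in convR duodenum. The part of these cell types in the falls of the cell division genes was not tested. Without the 10 libraries that stood apart, 8 of the 37 calls in duodenum were lost, of Ccne1, Cdk2, Gins2, Mcm2, Mcm6, Mcm7, Kif20a and Wee1, and that of Rrm2 was gained. That fit called 28.9% of all genes in either direction, against 23.8% lower and 22.5% higher with all libraries. It held no convR duodenum library at ZT6 or ZT14 and no GF duodenum library at ZT22. With those 14 libraries the lost genes kept their sign, with Ccne1 at -0.31, Gins2 at -0.28, Mcm2 at -0.25, Mcm6 at -0.25, Mcm7 at -0.23, Cdk2 at -0.21, Kif20a at -0.33 and Wee1 at 0.34.

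In the ileum, too, genes of both phases were lower in GF. There 31 of the 42 fell, Cdkn1a rose and 10 missed the threshold. The median log2 fold change was -0.24, against 0.01 over 18082 genes. At the same threshold 22.4% of all genes tested were lower and 19.5% higher in GF ileum. Of the 20 G2/M genes 18 fell (median -0.25), with Aurkb and Plk1 as exceptions at -0.24 and -0.20, and of the 20 S phase genes 13 fell (median -0.24). Summed G2/M levels averaged 1115 ± 95.0 CPM in GF and 1309 ± 142 CPM in convR ileum (SD, n = 11 and 12), and summed S phase levels 525 ± 47.7 CPM in GF and 607 ± 53.2 CPM in convR ileum. Their ratio averaged 2.13 ± 0.199 in GF and 2.16 ± 0.137 in convR ileum.

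Genes of replication led the list by p in ileum. Cdc45 (ENSMUSG00000000028, mm10 chr16:18780447-18811987) ran from 6.15 to 9.19 CPM with a median of 7.48 CPM in GF ileum and from 8.15 to 12.0 CPM with a median of 9.63 CPM in convR ileum, and fell by 0.39 ± 0.06 on the log2 scale (SE, edgeR adjusted p = 1.95e-05). Mcm3 ran from 20.5 to 28.3 CPM with a median of 26.0 CPM in GF and from 28.28 to 39.3 CPM with a median of 32.1 CPM in convR ileum. Its groups met at the edge, at 28.34 CPM in the highest GF library, and it fell by 0.38 ± 0.06 (SE, edgeR adjusted p = 2.2e-05). Ccne2, the second cyclin E gene, showed the largest fall of the 42, by 0.64 ± 0.10 (SE, edgeR adjusted p = 2.5e-05), with 7.86 to 16.1 CPM in GF and 11.2 to 24.2 CPM in convR ileum. The libraries of these 3 genes overlapped, and so did those of all 42 genes in ileum, while 4.49% of all genes tested had every GF ileum library below every convR one.

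Of the G2/M genes Cenpa fell most in ileum, by 0.41 ± 0.06 to 13.7 ± 1.97 CPM in GF, against 17.9 ± 2.26 CPM in convR ileum (edgeR adjusted p = 2.96e-05). Ccnb1 fell by 0.40, Cdc20 by 0.36, Top2a by 0.35, Bub1b by 0.27 and Mki67 by 0.16. The licensing genes Mcm5, Cdc6, Mcm4 and Mcm2 fell by 0.39, 0.36, 0.26 and 0.25. Cdt1, Cdk2, E2f1, Gins2, Pole, Rrm2 and Pcna were the 7 S phase genes that did not pass. Cdt1 averaged 14.1 ± 2.01 CPM in GF and 13.6 ± 2.74 CPM in convR ileum. Cdkn1a rose by 0.16 ± 0.05 to 108 ± 15.7 CPM in GF, against 95.9 ± 7.80 CPM in convR ileum (SE, edgeR adjusted p = 0.0107). With library size alone its difference was 0.10 and did not pass (edgeR adjusted p = 0.0642). Wee1 averaged 14.2 ± 4.64 CPM in GF and 12.5 ± 2.34 CPM in convR ileum and did not pass.

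Other G2/M genes fell in 22 of 35 cases in ileum and 1 rose (median -0.18), and other S phase genes fell in 13 of 28 (median -0.15). Hmmr, which organises spindle poles, fell by 0.35, and Atad2, a chromatin ATPase of replicating cells, by 0.36. Of 64 measured histone genes 50 fell and 1 rose (median -0.48). Ccnd1 fell by 0.99 to 69.2 ± 7.96 CPM in GF, against 135 ± 31.8 CPM in convR ileum, and Rb1 rose by 0.45. All 8 T cell markers fell in ileum, with sums from 1.47 to 7.19 CPM in GF and from 29.2 to 65.5 CPM in convR. All 4 plasma cell markers fell, Igha by 4.02 among them, with sums from 130 to 368 CPM in GF and from 1936 to 5536 CPM in convR ileum. All 6 macrophage markers fell, Csf1r by 1.27 among them, with sums from 52.4 to 78.4 CPM in GF and from 106 to 183 CPM in convR ileum. Of 8 enterocyte markers 2 rose and 1 fell, Fabp2 at 0.81 and Sis at -0.49 among them. B cell and germinal centre markers fell in 2 of 7 measured cases, with sums from 1.09 to 43.0 CPM in GF and from 6.23 to 117 CPM in convR ileum. Stem cell markers rose in 2 and fell in 1 of 8 cases, with sums from 461 to 620 CPM in GF and from 497 to 724 CPM in convR ileum, and 5 of 5 smooth muscle markers rose. The part of these cell types was not tested here either. Without the 2 ileum libraries that stood apart, Ccna2, Ube2c, Birc5 and Mki67 no longer passed, at -0.16, -0.20, -0.18 and -0.13, against -0.21, -0.27, -0.23 and -0.16 with them. That fit called 39% of all genes in either direction.

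**Figure D3:**
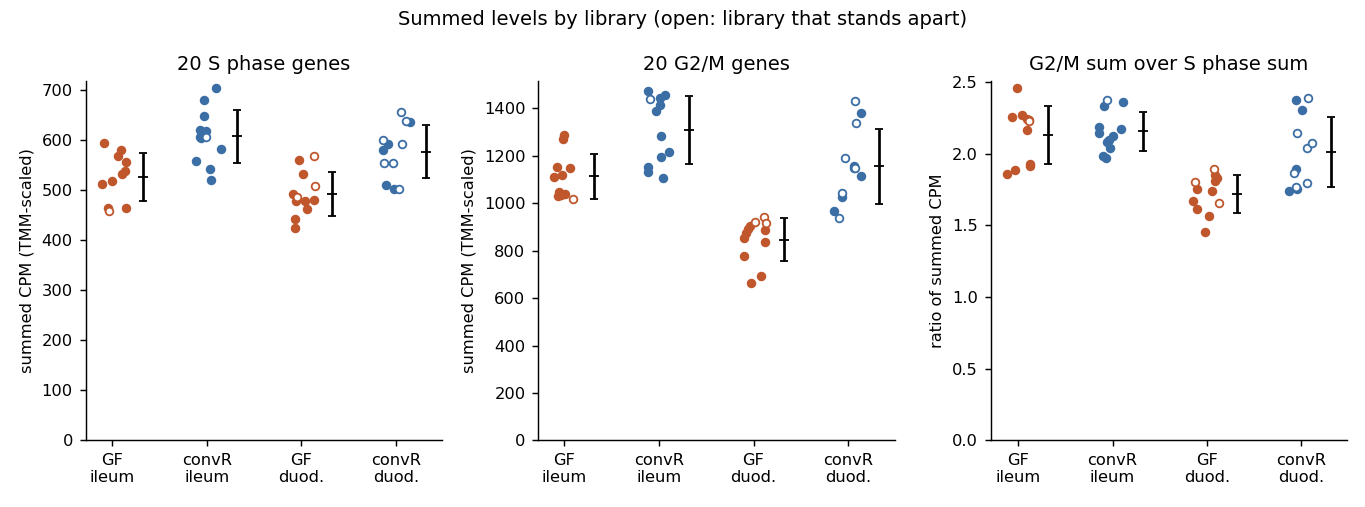
Summed CPM (y axis, TMM-scaled, from 0) of the 20 S phase genes and the 20 G2/M genes, and the ratio of both sums, in each library, with the mean ± SD in black and open points for libraries that stand apart. The ratio averages 1.72 in GF duodenum and between 2.01 and 2.16 in the other 3 groups.

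The difference between GF and convR was then compared between the tissues in a single model of all 47 libraries. The effect in ileum minus that in duodenum was positive, that is, less of a fall in ileum, for 6 of the 42 genes, all of them G2/M genes, and negative for 0. Of 19000 genes tested 4.58% passed with a positive and 7.69% with a negative difference. For Bub1 the difference of log2 fold changes was 0.31 ± 0.09 (SE, edgeR adjusted p = 0.0231), for Cdk1 0.29 ± 0.09 (adjusted p = 0.0353) and for Tpx2 0.27 ± 0.09 (adjusted p = 0.0387). Cenpf, Kif11 and Bub1b followed at 0.26, 0.25 and 0.21. The median of the 20 G2/M genes was 0.20 and that of the 20 S phase genes 0.06. None of the 20 S phase genes passed in edgeR or DESeq2, which called 13.5% of all genes, and 2 of them, Ccne2 and Cdk2, had an unadjusted p under 0.05 in edgeR, as did 25.5% of all genes. Of 35 other G2/M genes 11 passed, all with a positive difference, among them Kif23 at 0.34, and of 28 other S phase genes Clspn alone did, at 0.29. Stem cell markers passed in 4 of 8 cases, all positive, Lgr5 at 0.53 among them. T cell markers passed in 7 of 8 cases, all negative, with Cd8a at -3.23. Smooth muscle markers passed in 2 of 5 cases, Actg2 at 0.60 and Cnn1 at 0.44, and Igha and Csf1r passed at -0.96 and -0.69. The part of these cell types was not tested. Of the 6 calls, Bub1 held in all 47 fits that left out 1 library, and also without the 12 libraries that stood apart, where it was at 0.46 (edgeR adjusted p = 0.0349). The other 5 did not pass there, with Cdk1 at 0.39, Tpx2 at 0.30, Cenpf at 0.29, Kif11 at 0.28 and Bub1b at 0.25, each above its value with all libraries. With same-numbered libraries of both tissues at each status and time paired as a block, Kif11 and Bub1b did not pass. They were at 0.24 and 0.19 (edgeR adjusted p = 0.0585 and 0.0766), and the other 4 genes passed.

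The differences between GF and convR were present through the day in duodenum. At each of the 6 times all 20 G2/M genes had a lower mean log2(CPM + 0.5) in GF duodenum, with medians from -0.67 at ZT18 to -0.32 at ZT22. Of the 20 S phase genes, 15 to 19 were lower in GF at each time, with medians from -0.43 at ZT10 to -0.15 at ZT22. Bub1 differed by -0.83 at ZT18 and by -0.29 at ZT22. Cdt1 was higher in GF duodenum at all 6 times, by 0.18 to 0.31. In ileum the G2/M genes were lower in GF in 9 of 20 cases at ZT2, where GF had 1 library, and in 20 of 20 cases at each of the other 5 times, with medians from 0.01 at ZT2 to -0.38 at ZT22. Ccne2 was lower in GF ileum at all 6 times, by 0.24 to 0.74. The effect of status by time passed for 0 of the 42 genes in either tissue (edgeR interaction of status with ZT), as for 0% of all genes tested in each tissue. An unadjusted p under 0.05 was found for 1 of the 42 in each tissue, Ccne2 in duodenum and Cenpf in ileum, against 2.74% of all genes in ileum and 5.13% in duodenum. DESeq2 called 0 of the 42 in either tissue, against 0.188% of all genes in ileum and 0.528% in duodenum.

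**Figure D4:**
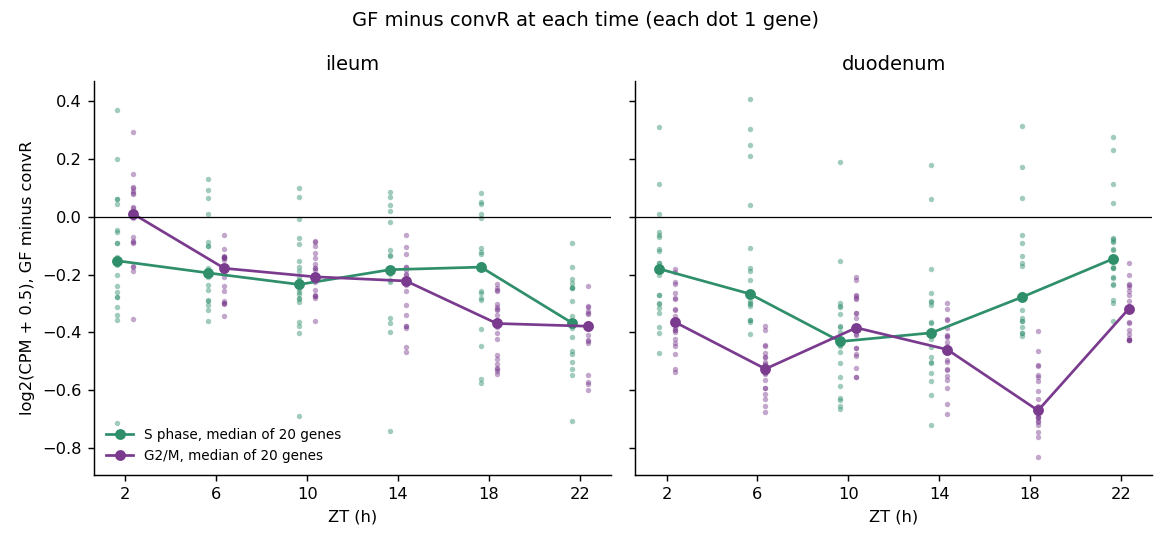
Difference of mean log2(CPM + 0.5), GF minus convR (y axis), at each ZT (x axis, h), in ileum (left) and duodenum (right); each dot is 1 gene and lines join the medians of the 20 S phase and the 20 G2/M genes. In duodenum the G2/M median lies between -0.67 and -0.32 at all 6 times, and in ileum it starts at 0.01 at ZT2 and reaches -0.38 at ZT22.

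Ileum was then set against duodenum within each status. In GF mice 30 of the 42 genes were higher in ileum, 4 were lower and 8 missed the threshold (median log2 ratio of ileum to duodenum 0.26). In convR mice 17 were higher, 3 were lower and 22 did not pass (median 0.14). Over all genes, 33.2% were higher and 33.4% lower in GF ileum than in GF duodenum, and 24.9% were higher and 24.8% lower in convR. Of the 20 G2/M genes 18 were higher in ileum in GF and 7 in convR, and of the 20 S phase genes 11 and 9. The 2 tissue comparisons and the 2 status comparisons share libraries, and the only test of their difference is the one of the 6 genes above.

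Cenpf, a large protein of the outer kinetochore, differed most between the tissues in both kinds of mice. It ran from 53.3 to 73.1 CPM with a median of 64.9 CPM in GF ileum and from 28.4 to 44.1 CPM with a median of 36.9 CPM in GF duodenum. Both groups were apart without overlap, by 0.76 ± 0.06 on the log2 scale (SE, edgeR adjusted p = 4.21e-10). In convR it ran from 63.1 to 87.5 CPM with a median of 72.2 CPM in ileum and from 43.0 to 74.2 CPM with a median of 48.8 CPM in duodenum, a difference of 0.49 ± 0.06 on the log2 scale (SE, edgeR adjusted p = 8.68e-07). Cdk2 was higher in ileum by 0.44 in GF and 0.24 in convR, Cenpe by 0.48 and 0.27, and Mki67 by 0.41 and 0.20. Cdkn1a was also higher in ileum, by 0.28 in GF and 0.35 in convR. Cdt1, Wee1 and Rrm2 were lower in ileum in both, Cdt1 by 0.46 in GF and 0.26 in convR, Wee1 by 0.62 and 0.28, and Rrm2 by 0.27 and 0.31. Pcna was lower in GF ileum by 0.21 and did not pass in convR, at -0.06. With library size alone, which moved the median of all genes to 0.13, Pcna and Rrm2 no longer passed in GF, and Rrm2 did not pass there without the libraries that stood apart either.

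Ccnd1, outside the 42, was higher in ileum by 1.04 in GF and 1.26 in convR, and E2f5, a repressor of the E2F family, by 1.23 and 0.86. Of 35 other G2/M genes 32 were higher and 1 lower in GF ileum, and 22 were higher and 1 lower in convR ileum. Smooth muscle markers summed to 1823 ± 170 CPM in GF ileum and 708 ± 78.7 CPM in GF duodenum, and to 1376 ± 180 CPM in convR ileum and 688 ± 166 CPM in convR duodenum (SD, n = 11, 12, 12 and 12). Enterocyte markers summed to 22880 ± 4870 CPM in GF ileum and 39820 ± 5483 CPM in GF duodenum, and to 19020 ± 4963 CPM in convR ileum and 30850 ± 7926 CPM in convR duodenum. Of 8 stem cell markers 2 are named here, Lgr5 and Axin2, which were higher in ileum by 1.45 and 1.22 in GF and by 0.90 and 0.85 in convR. They do not stand for the rest of that list, which is given only through its sum. Summed over their whole list, stem cell markers differed less. They averaged 531.5 ± 44.0 CPM in GF ileum and 441.7 ± 37.8 CPM in GF duodenum. In convR they averaged 601.3 ± 82.5 CPM in ileum and 590.9 ± 74.1 CPM in duodenum. Macrophage markers were lower in ileum in 6 of 6 cases in both kinds of mice, and plasma cell markers in 3 of 3 measured cases in GF and 4 of 4 in convR. T cell markers were lower in ileum in 6 of 7 measured cases in GF, and in convR 4 were lower and 2 higher of 8. The part of these cell types in the tissue differences was not tested. Without the libraries that stood apart, the count of genes higher in convR ileum was 5 of 42 in place of 17. That fit called 37.8% of all genes in either direction, and it held no convR duodenum library at ZT6 or ZT14. The 12 lost genes, Mki67 among them at 0.19 (edgeR adjusted p = 0.0718), kept their sign, with values from 0.13 for Pola1 to 0.28 for Ccne2. Deviations of same-numbered convR libraries of both tissues correlated at 0.26 to 0.615, over 0.1 at 6 of 6 times. With same-numbered libraries of each time paired across the tissues as a block, 20 genes were higher in convR ileum, since Pole, Ccnb1 and Top2a then passed. The block fit called 54.7% of all genes in either direction.

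Rhythms over the day were fitted as a cosine of 24 h in each tissue and status. Wee1 was the only one of the 42 genes to pass, in GF ileum. It had 9.13 CPM at ZT2, 10.2 and 10.3 CPM at ZT6, 12.2 and 14.3 CPM at ZT10, 17.8 and 25.1 CPM at ZT14, 14.2 and 17.9 CPM at ZT18, and 11.5 and 13.2 CPM at ZT22 in GF ileum. The fitted peak was at ZT 15.1 with a peak-to-trough fold of 2.19 (edgeR adjusted p = 0.0102), and 1.39% of all genes passed in GF ileum. The gene is known as a target of the circadian clock in mouse liver. With ZT as a factor in place of the cosine, Wee1 did not pass, in a fit that called 0.301% of all genes.

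Wee1 also had its highest levels in the dark phase in the other 3 groups, where it did not pass. In convR ileum it peaked at ZT 16.3 with a peak-to-trough fold of 1.55 (unadjusted p = 0.000272, edgeR adjusted p = 0.0836), in GF duodenum at ZT 12.7 with a fold of 2.16 (unadjusted p = 0.00211, adjusted p = 0.0636) and in convR duodenum at ZT 15.0 with a fold of 1.84 (unadjusted p = 0.000174, adjusted p = 0.0843). In GF duodenum the ZT6 pair differed, with 29.5 CPM in replicate 1, a library with 6256 CPM of summed pancreas markers, and 12.7 CPM in replicate 2. Without replicate 1 at ZT6, and also without replicate 2, Wee1 passed in GF duodenum. Without the libraries that stood apart its adjusted p there was 0.0024.

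In convR duodenum no gene of the 42 passed in edgeR, as against 0.0301% of all genes. An unadjusted p under 0.05 was found for 10 of the 42, 9 of them S phase genes, and for 11.1% of all genes. DESeq2 called 8 of the 42, 7 of them S phase genes, and 2.73% of all genes. Ccne1 had 3.34 and 3.21 CPM at ZT2, 4.96 and 4.12 CPM at ZT6, 6.65 and 6.09 CPM at ZT10, 6.12 and 6.65 CPM at ZT14, 4.66 and 5.69 CPM at ZT18, and 3.86 and 3.95 CPM at ZT22 in convR duodenum. Its fitted peak was at ZT 12.8 with a peak-to-trough fold of 1.98 (unadjusted p = 3.6e-05, edgeR adjusted p = 0.0603). Cdc6, Mcm4 and Mcm3 had fitted peaks at ZT 13.3, 12.6 and 12.7 and Ccne2 at ZT 16.7, with adjusted p from 0.122 to 0.137. Mcm4 ran from 27.1 CPM at ZT22 to 38.5 CPM at ZT18.

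In GF duodenum 0 of the 42 genes passed in edgeR, where 2.68% of all genes did. There 4 of the 42 and 16.8% of all genes had an unadjusted p under 0.05, and DESeq2 called 2 of the 42, Ccne2 and Wee1, and 6.74% of all genes. Without the libraries that stood apart Ccne2 passed in edgeR in GF duodenum as well (adjusted p = 0.00906), in a fit that called 2.92% of all genes. In convR ileum 0 of the 42 passed in edgeR, where 0.133% of all genes did. There 6 of the 42 and 8.74% of all genes had an unadjusted p under 0.05, and DESeq2 called Wee1 and 1.68% of all genes. In GF ileum 6 of the 42 and 11.8% of all genes had an unadjusted p under 0.05, and DESeq2 called Wee1 and 3.88% of all genes. No G2/M gene passed in any of the 4 groups in edgeR or DESeq2, and 3 had an unadjusted p under 0.05, all in GF ileum. Cdk1 stood at 23.3 to 35.6 CPM over the libraries of convR duodenum with no fitted rhythm (unadjusted p = 0.479). The rhythm differed between GF and convR for 0 of the 42 genes in edgeR and DESeq2 in either tissue, as for 0% of all genes. Unadjusted p values under 0.05 were found for Mcm4 in duodenum and for Wee1 and Cenpf in ileum, against 4.11% of all genes in duodenum and 3.36% in ileum.

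**Figure D5:**
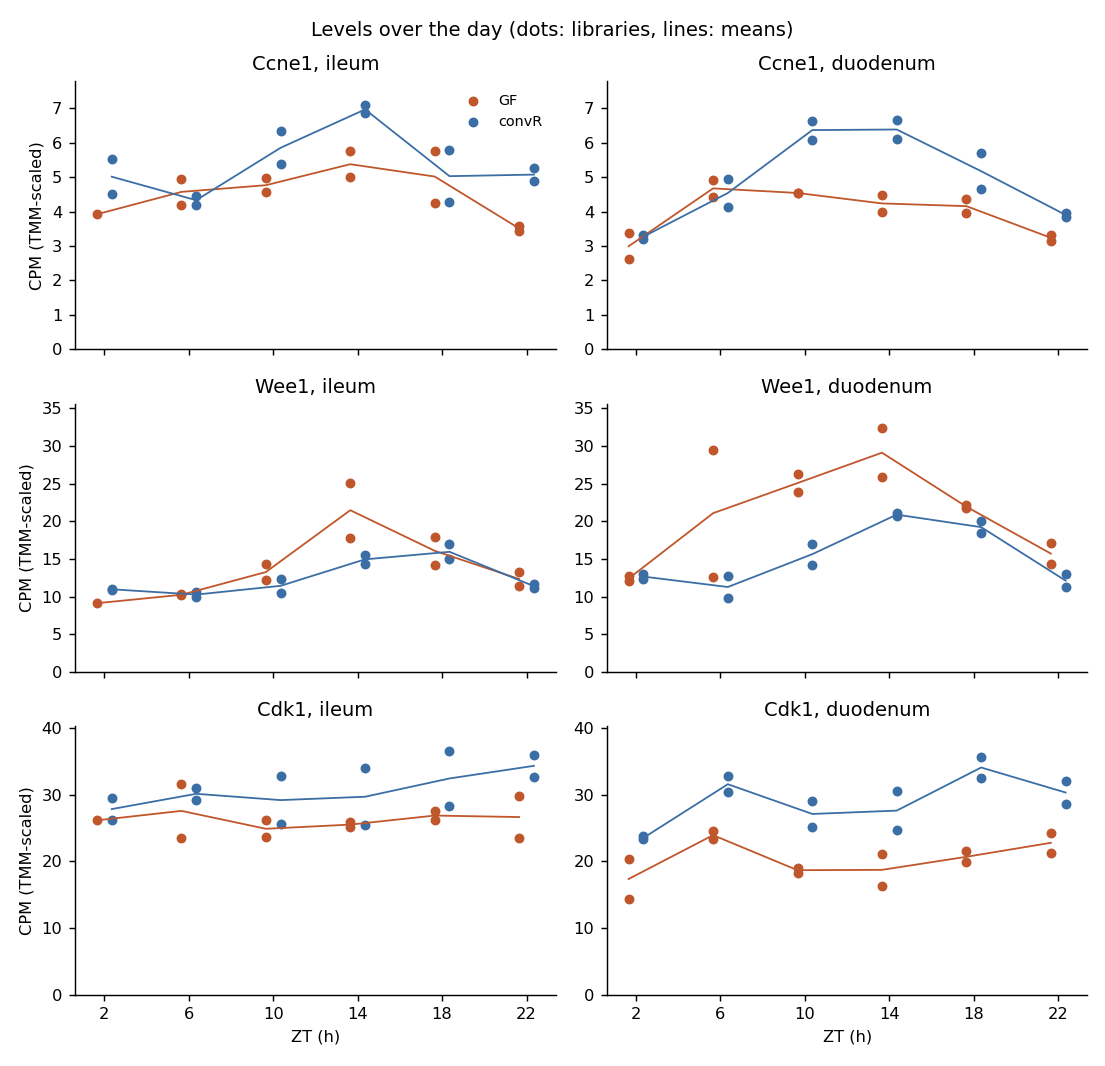
CPM (y axis, TMM-scaled, from 0) of Ccne1, Wee1 and Cdk1 in each library by ZT (x axis, h), in ileum (left) and duodenum (right), with GF in orange and convR in blue and lines through the means. Wee1 is highest at ZT14 or ZT18 in all 4 groups by the means of each time, and Cdk1 in GF duodenum lies below convR at every time.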

How the data were processed

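RNA was measured in whole pieces of ileum and duodenum, 47 libraries in all. Per the labels' protocols, libraries were made from total RNA after depletion of ribosomal RNA with a stranded kit, so histone transcripts without a poly(A) tail are captured. The authors deposited raw read counts over exons per gene. Per the submitters' processing notes STAR 2.4.0i and the build mm10 were used; which program counted the reads, with which annotation and with what strand setting, is not given in the sources used here. The members and gene lists were chosen with earlier results of these data known. Counts were tested with edgeR 4.0.16 (quasi-likelihood, robust, TMM scaling) in R 4.3.3, after filterByExpr with a minimum count of 10, with Benjamini-Hochberg adjustment over all genes at 0.05, two-sided. Status and tissue were tested with ZT as a factor and rhythms as a 24 h cosine. Any member could be named, and from each other list up to 3 genes per comparison with the smallest p. Of 38087 gene IDs, 36308 matched GENCODE annotation, from which coordinates were taken. Exon lengths were those deposited with the counts. CPM values were TMM-scaled over all 47 libraries, and differences by time used log2(CPM + 0.5). Total counts of 22.5 M to 41.9 M per library limit the precision of low genes. Of 23 replicate pairs none agreed within sampling noise (chi-square per degree of freedom 18.4 to 159). Deviations of same-numbered libraries correlated over 0.1 at 6 of 6 times between tissues in convR, at 2 of 5 between tissues in GF, at 1 of 6 between GF and convR in duodenum and at 2 of 5 in ileum. Alternatives were other scalings, no filter, DESeq2 1.42.0, a replicate block, leaving out libraries that stood apart, and leaving out each library. The block was the replicate number, and in comparisons between tissues it paired same-numbered libraries of the same status and time. Scripts were tested on simulated data.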

Additional observations from a re-analysis of the deposited data

Results flagged for a closer look

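For 6 G2/M genes the difference between GF and convR itself differed between the tissues, by the test of the interaction of status with tissue. The log2 fold change in ileum minus that in duodenum was 0.31 for Bub1, 0.29 for Cdk1, 0.27 for Tpx2, 0.26 for Cenpf, 0.25 for Kif11 and 0.21 for Bub1b. Of all genes tested 4.58% passed with a positive and 7.69% with a negative difference. With same-numbered libraries of both tissues at each status and time paired as a block, Kif11 and Bub1b no longer passed. Without the libraries that stood apart only Bub1 passed. When 1 library was left out, Cenpf, Kif11 and Bub1b lost their call in 21, 20 and 19 of 47 fits. Tpx2 and Cdk1 lost theirs in 12 and 11. Each of the 6 genes fell in both tissues and fell by more in duodenum. The fall of Bub1 was 0.24 in ileum and 0.54 in duodenum, and that of Cdk1 was 0.23 in ileum and 0.51 in duodenum.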

How the results depend on the processing

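No called value of the 42 genes changed sign under any alternative that was run. Genes higher in GF duodenum numbered 1 in place of 2 with library size alone and without the libraries that stood apart, and in GF ileum 0 in place of 1 with library size alone. Of all genes, these fits called 48.7%, 28.9% and 39.7% in that order, in either direction. The 6 interaction calls became 2 with no filter, 1 without the libraries that stood apart and 4 with the replicate block. Of all genes tested, these fits called 5.06%, 6.66% and 15% in that order, with positive and negative differences both counted. Leaving out 1 library gave 1 to 8 positive and 0 to 1 negative calls, and 17 of 47 libraries moved the positive count by over 1.5 times. The count was 1 without convR duodenum ZT10 or ZT14 replicate 2, GF duodenum ZT18 replicate 1, convR ileum ZT10 replicate 1, or GF ileum ZT2 replicate 2, ZT6 replicate 2 or ZT22 replicate 1. It was 2 without convR duodenum ZT18 replicate 1, GF duodenum ZT2 replicate 1 or ZT6 replicate 2, convR ileum ZT14 replicate 1, or GF ileum ZT10 replicate 1, ZT14 replicate 2 or ZT18 replicate 2. It was 3 without convR ileum replicate 1 at ZT2, ZT6 or ZT18. Genes higher in convR ileum than in convR duodenum numbered 5 in place of 17 without the libraries that stood apart, and genes lower in GF ileum than in GF duodenum 2 in place of 4 with library size alone. Of all genes, these fits called 37.8% and 70.1% in either direction. Rhythm calls in convR duodenum became 2 with no filter and 8 with DESeq2, in GF duodenum 2 without the libraries that stood apart and 2 with DESeq2, in convR ileum 1 with DESeq2, and in GF ileum 0 with ZT as a factor. Of all genes, the fits of convR duodenum called 0.107% and 2.73%, and those of GF duodenum 2.92% and 6.74%. The fit of convR ileum called 1.68% and that of GF ileum 0.301%. Leaving out 1 library gave 0 to 2 rhythm calls in GF duodenum. The effect of status by ZT in duodenum had 1 call of the 42 with no filter, a fit that called 5.05% of all genes. The cause was not tested in any of these cases. With the replicate block, 36 genes were lower in GF duodenum (Pole added), 32 in GF ileum (Aurkb added) and 27 higher in GF ileum than in GF duodenum (Ccne1, Mcm5 and Aurka lost). Of all genes, the block fits called 48.2%, 45.6% and 65.1% in that order, in either direction. Without 1 library, 34 to 37 genes were lower in GF duodenum and 30 to 34 in GF ileum, and 28 to 32 were higher in GF ileum and 12 to 19 in convR ileum than in duodenum. The effect by ZT could not be fitted in duodenum without the libraries that stood apart, nor in ileum without GF ileum ZT2 replicate 2.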
